A study of Mus musculus with 9 samples.

Results

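Ribosome biogenesis factors are the proteins that transcribe ribosomal RNA (rRNA), modify and cut it, and assemble it with ribosomal proteins into the small and large subunits. The 39 genes described here were chosen by symbol as a list of such factors and were looked up in count tables of mouse bone marrow RNA-seq. All 39 were found, among 37187 genes of the table for LSK cells and 45076 genes of the table for neutrophils. 38 of them were matched by symbol in the normalized LSK table, and Noc2l was matched by its Ensembl identifier in the raw one. All 39 passed the filter on low counts in both populations. The study sorted LSK cells, the marrow fraction that is negative for lineage markers and positive for Sca-1 and Kit and that holds stem and early progenitor cells, and Ly6G-positive cells, labelled as neutrophils. Each population came from mice aged 4 to 12 weeks with the genotype Spop(+/+), called wild type (WT), or Spop(D/D), called knockout (KO) in the library titles. Spop encodes the substrate-binding subunit of a cullin-3 ubiquitin ligase. There were 2 WT and 2 KO LSK libraries and 2 WT and 3 KO neutrophil libraries. How the deletion was made, in which cells it was driven and which exons it removed was not given in the sources used here.

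RNA polymerase I (Pol I) transcribes rRNA genes in the nucleolus as a long precursor, and its output is set by factors such as Rrn3 that load it on the promoter. Small nucleolar RNA-protein complexes (snoRNPs) modify the precursor: box C/D particles add methyl groups to ribose, and box H/ACA particles turn uridine into pseudouridine. The processome of the small subunit and the pre-60S factors of the large subunit then fold, cut and export the particles, and blood-forming progenitors are sensitive to defects in these steps.

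Libraries held 18827892 to 20264417 counted reads in LSK cells and 21012702 to 27434086 in neutrophils. Spop itself stood at 380.4 and 390.1 counts-per-million (CPM, scaled by trimmed means) in WT LSK cells and 312 and 306 CPM in KO LSK cells (log2 fold change -0.32 ± 0.0889 SE, edgeR quasi-likelihood test, Benjamini-Hochberg adjusted p = 0.0118). That call was lost without either WT library (adjusted p = 0.0832 and 0.117). The neutrophil values were 135 and 194 CPM in WT and 158, 178 and 210.0 CPM in KO, and these groups overlapped (log2 0.15, adjusted p = 0.901). Spop transcript was therefore still counted in every KO library, and the counts do not check the neutrophil labels. The library LSK-KO-2 is entered as neutrophil under cell type, against its title and source, which say LSK. It had 0 reads of Ly6g, and the median log2 fold change of the 39 genes in LSK cells was 0.69 with it and 0.75 without it. Libraries N-WT-2 and N-KO-3 stood apart from the other neutrophil libraries, with the markers given beside the neutrophil results. Whether replicates were separate animals is not stated, so p-values measure only the spread between libraries, which may be technical.

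In LSK cells all 39 ribosome biogenesis genes were higher in KO than in WT at an adjusted p below 0.05. Their log2 fold changes ran from 0.29 (Nop56) to 1.36 (Utp20) with a median of 0.69, while the median of all 13008 genes tested was -0.03. Of all genes tested, 21.0% were called higher and 21.2% lower (2738 and 2756 genes). In each of the 39 genes both KO libraries lay above both WT libraries, which was true of 34.6% of all genes tested. Summed over the 39 genes, levels were 6106 and 6136 CPM in WT and 10144 and 9413 CPM in KO. Their share of all reads was 0.639% and 0.654% in WT and 0.960% and 0.889% in KO. The pair of KO libraries was thus above the pair of WT libraries whether levels were scaled or not. With upper-quartile scaling and with total counts the median of all genes moved to -0.12 and -0.19 and the calls over all genes moved to 2207 higher and 3445 lower, and 1857 higher and 3889 lower. The members' median less that of all genes stayed at 0.72 in each of these, and all 39 fold changes stayed positive in all 11 alternatives tried. The number called was 34 with upper-quartile scaling (17.0% of all genes higher) and 33 with total counts (14.3%). With 1 library left in a group, the members' median was 0.66 without LSK-WT-1, 0.68 without LSK-WT-2, 0.65 without LSK-KO-1 and 0.75 without LSK-KO-2. Some calls were lost without LSK-WT-1 or LSK-WT-2, as given for single genes below. In one fit of all 9 libraries no gene was called, members included, and the median log2 fold change was 0.69.

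**Figure D1:**
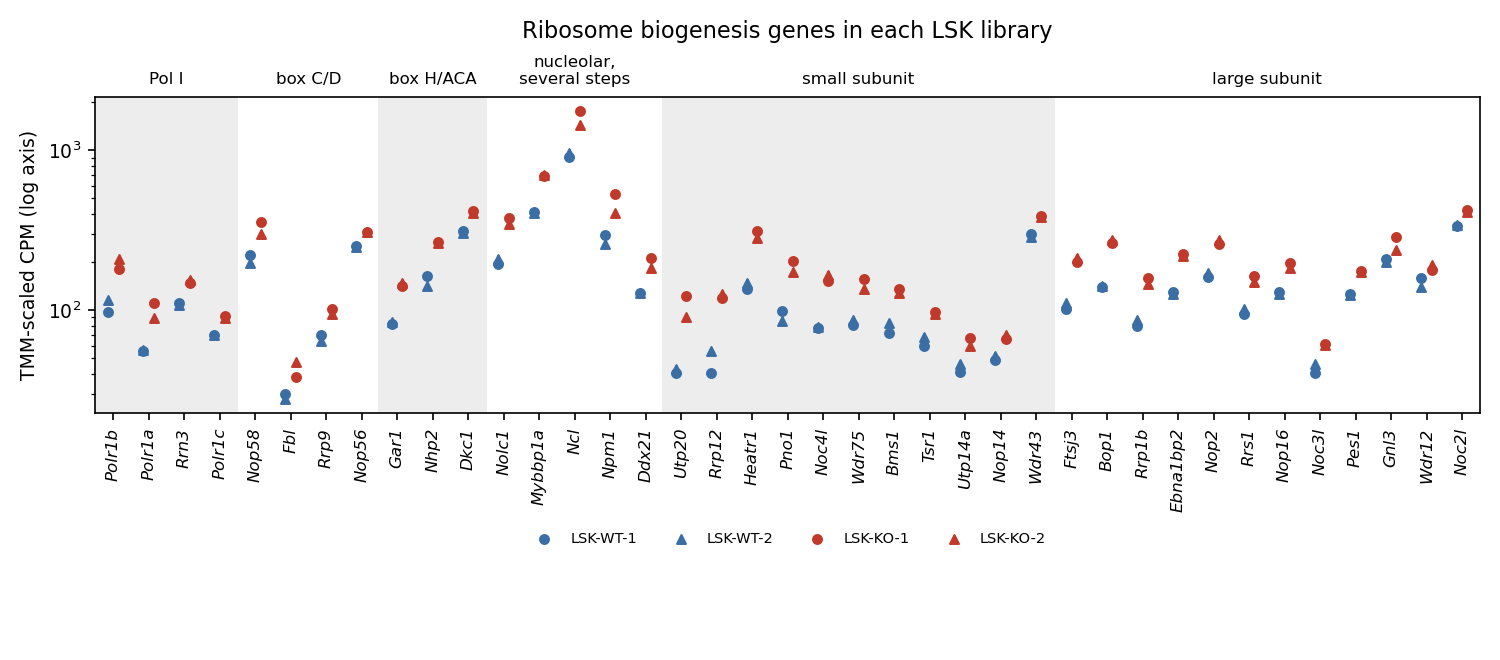
Levels of the 39 genes in each of the 4 LSK libraries, in CPM on a log axis, grouped by role and, within a role, ordered by fold change; blue marks WT, red KO, circles replicate 1 and triangles replicate 2. For every gene both red marks lie above both blue marks, from Fbl at the bottom (30.0 and 27.9 CPM in WT) to Ncl at the top (1761 and 1429 CPM in KO).

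Markers of cell state and of other cell types moved with the genotype in the same LSK libraries. Of 18 S-phase genes 17 were called higher, with sums of 4156 and 3987 CPM in WT and 7136 and 7719 CPM in KO. Of 16 G2 and M-phase genes 14 were called higher, with sums of 1400.4 and 1404 CPM against 2494 and 2557 CPM. Of 8 progenitor markers 7 were called lower, with sums of 4805 and 4579.9 CPM against 2750.5 and 3004 CPM. Kit, among those called lower, went from 990 and 1049 CPM in WT to 605 and 644 CPM in KO. Ly6a (Sca-1) was the 1 called higher, at 170 and 157 CPM in WT and 193 and 227 CPM in KO. The 10 monocyte and macrophage markers summed to 148 and 205 CPM in WT and 1003 and 1492 CPM in KO, with 5 called higher and 4 lower, and none was at 0 in any library. The 10 B cell markers summed to 223 and 207 CPM in WT and 63.9 and 69.4 CPM in KO, with 8 of 9 tested called lower. Of 8 heat shock genes tested 6 were called higher, with sums of 712 and 734 CPM against 1307 and 1206 CPM. The 12 neutrophil markers summed to 228 and 238 CPM in WT and 348 and 287 CPM in KO, with Ly6g at 0 in all 4 libraries. Of 10 tested, 3 were called higher and 2 lower, and Csf3r alone stood at 191 and 189 CPM in WT and 184 and 183 CPM in KO. The 10 red cell markers summed to 123 and 181 CPM in WT and 56.5 and 98.6 CPM in KO, with 7 called lower. The part of these shifts in the rise of the ribosome biogenesis genes was not tested, and in bulk libraries fewer cells of a type and less RNA per cell cannot be told apart.

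The 5 members with the largest fold changes, Utp20, Rrp12, Heatr1, Pno1 and Noc4l, all belong to the small-subunit group. Of these, Utp20 and Pno1 carry a canonical E-box, CACGTG, just after their transcription start. Heatr1 and Noc4l held no match, and Rrp12 had no window. All sites found in the members are printed below, and a part of them in the fold changes was not tested. An E-box is the sequence bound by basic helix-loop-helix factors such as Myc with Max and Usf. The letters CACGTG read the same on both strands, and windows of 300 bases (250 before and 50 after each RefSeq start, GRCm38.p6) were searched for them. Of the 39 genes, 34 had a window and 8 of these held the motif (23.5%). The motif was in the windows of 11.7% of 9920 genes tested in LSK cells, of 8.09% of all 27025 genes and of 17.7% of 113 other genes of the pathway. In the 250 bases before the start alone the share was 2 of 34 genes (5.88%), beside 9.87% of the genes tested and 9.7% of the other pathway genes. In the 50 bases after the start it was 6 of 34 (17.6%), beside 1.89% of the genes tested and 8.85% of the other pathway genes. That window was looked at after the matches had been seen. Each match is given in 30 bases, 5′ to 3′ on the strand of the gene, with the motif in capitals.
Utp20: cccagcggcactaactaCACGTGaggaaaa
Pno1: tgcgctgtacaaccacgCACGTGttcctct
Mybbp1a: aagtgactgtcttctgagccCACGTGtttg
Tsr1: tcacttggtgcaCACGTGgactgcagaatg
Wdr43: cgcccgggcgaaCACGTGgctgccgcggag
Pes1: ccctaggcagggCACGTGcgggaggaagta
Nop2: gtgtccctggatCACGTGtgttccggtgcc
Rrn3, far site: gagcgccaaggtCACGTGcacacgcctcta
Rrn3, near site: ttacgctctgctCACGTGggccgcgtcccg

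The Utp20 site lies at chr10:88826765-88826794 and its motif begins at position 38, counted with the start as 1. That of Pno1 lies at chr11:17211540-17211569 and begins at the same position. Those of Mybbp1a (chr11:72441347-72441376), Tsr1 (chr11:74898092-74898121), Wdr43 (chr17:71616220-71616249) and Pes1 (chr11:3963965-3963994) begin at positions 41, 25, 18 and 3. The Nop2 site (chr6:125131811-125131840) lies before the start and begins at position -60, and the Rrn3 sites (chr16:13780472-13780501 and chr16:13780639-13780668) begin at -215 and -48. Genes with a match ranged in LSK fold change from 0.40 (Wdr43) to 1.36 (Utp20), nearly the whole range of the members. A match is a run of letters and not a measured binding site.

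**Figure D2:**
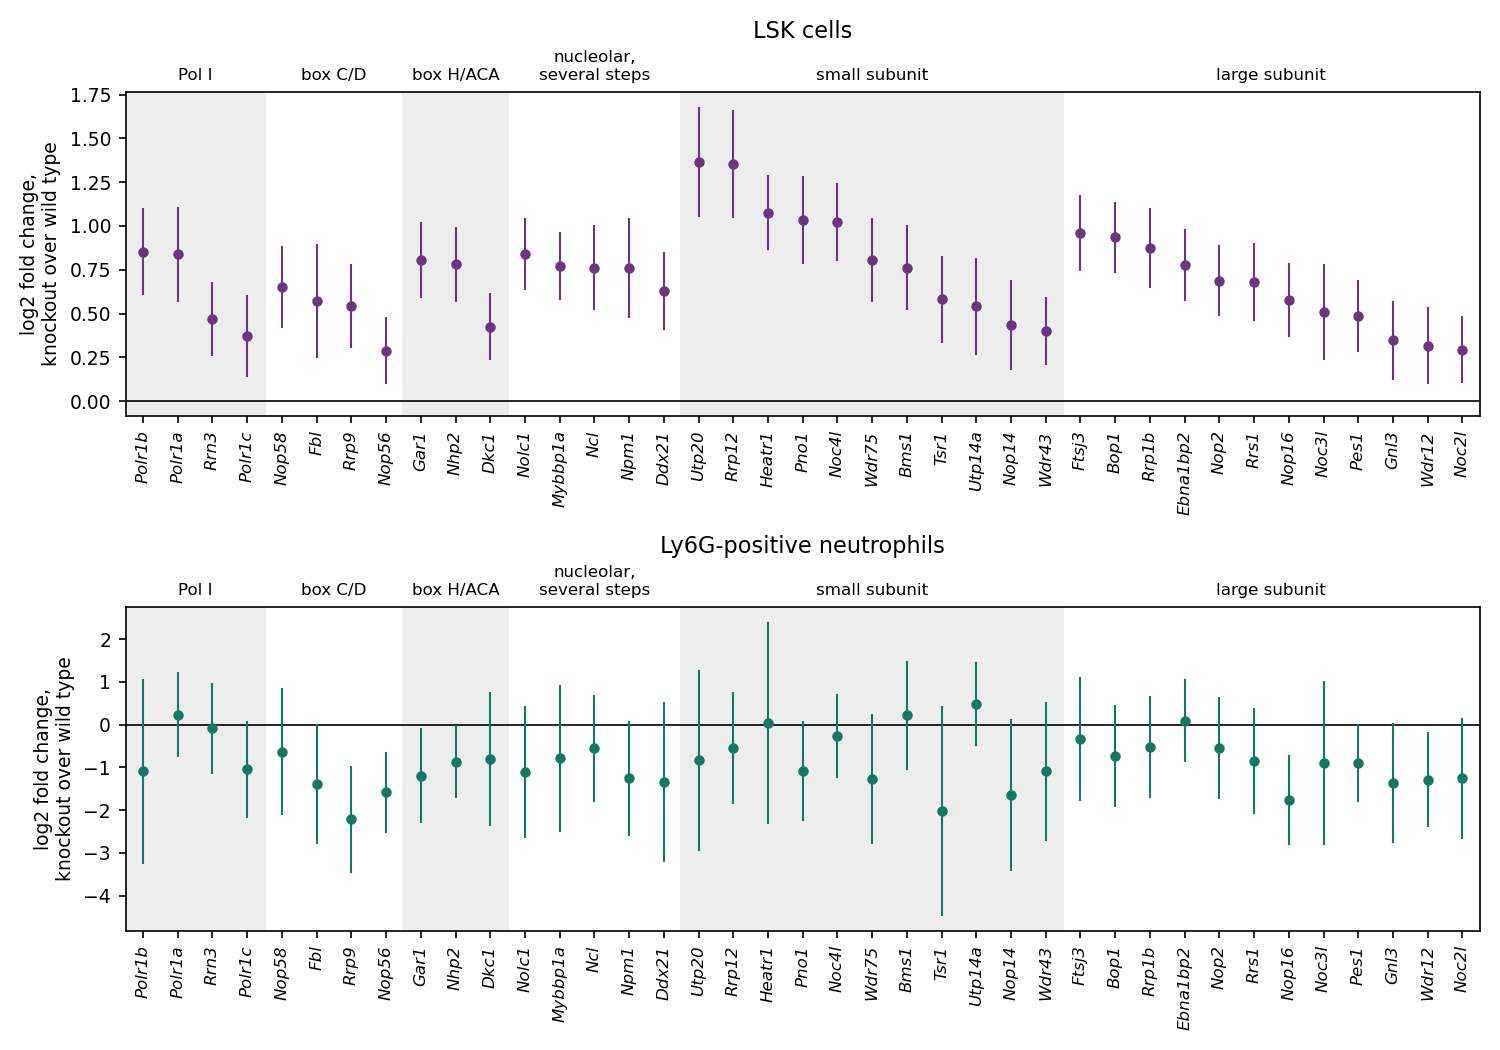
Log2 fold change (KO over WT) of each of the 39 genes in LSK cells (top) and neutrophils (bottom), with 95% confidence intervals as bars and a line at 0; the vertical scales differ. In LSK cells every interval lies above 0, from Nop56 (0.29) to Utp20 (1.36), and in neutrophils most intervals cross 0.

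Among the 4 genes of Pol I transcription all 4 rose, with a median log2 fold change of 0.65. Polr1a, the largest catalytic subunit, stood at 55.4 and 56.1 CPM in WT and 110.2 and 89.2 CPM in KO (log2 0.84 ± 0.125, adjusted p = 0.000191). Polr1b, the second catalytic subunit, went from 98.0 and 116 CPM to 179.8 and 208 CPM (log2 0.85 ± 0.115, adjusted p = 9.96e-05). Both catalytic subunits thus rose by about the same amount, and their intervals (0.57 to 1.11 and 0.60 to 1.10) overlapped almost fully. Polr1c, a subunit shared with RNA polymerase III, rose least, from 70.1 and 70.3 CPM to 92.4 and 89.1 CPM (log2 0.37 ± 0.108, adjusted p = 0.0150). Its call was lost with upper-quartile scaling, with total counts and without either WT library. Rrn3, the initiation factor that links Pol I to its promoter complex, stood at 111 and 107 CPM in WT and 147 and 154 CPM in KO (log2 0.47 ± 0.0980, adjusted p = 0.00210).

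The box C/D group held the smallest change of the list beside middling ones, with a median log2 fold change of 0.56 over 4 genes. Nop56 and Nop58 are the paralogous scaffold proteins that sit side by side in each box C/D particle. Nop58 rose from 221 and 196 CPM to 357 and 299 CPM (log2 0.65 ± 0.109, adjusted p = 0.000473). Nop56 rose from 254 and 249.6 CPM to 307 and 307 CPM (log2 0.29 ± 0.0885, adjusted p = 0.0199), with replicates that differed by less than 5 CPM in WT and 1 CPM in KO. The call of Nop56 was lost with upper-quartile scaling, with total counts and without either WT library. Fbl, the methyltransferase of the particle, had the lowest CPM of the members before adjustment for length. It stood at 30.0 and 27.9 CPM in WT and 38.2 and 47.7 CPM in KO (log2 0.57 ± 0.151, adjusted p = 0.00877), and its call was lost without LSK-WT-2. Rrp9, a protein of the U3 particle needed for early cuts, went from 70.0 and 64.5 CPM to 102 and 94.4 CPM (log2 0.54 ± 0.112, adjusted p = 0.00186).

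In the box H/ACA group 3 of 3 genes rose, and the fold change of the enzyme was below those of its partners. Dkc1, the pseudouridine synthase, stood at 311 and 303 CPM in WT and 418 and 406 CPM in KO (log2 0.42 ± 0.0892, adjusted p = 0.00213). Gar1, a structural protein of the particle, went from 82.2 and 83.8 CPM to 142 and 148 CPM (log2 0.81, adjusted p = 4.83e-05). Nhp2, its RNA-binding core protein, went from 164 and 143 CPM to 265 and 262 CPM (log2 0.78 ± 0.0999, adjusted p = 6.06e-05). The interval of Gar1 (0.59 to 1.02) overlapped that of Dkc1 (0.23 to 0.62) only at its upper end, and the differences between genes were not tested.

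The 5 nucleolar proteins with roles in several steps rose by similar amounts, log2 0.63 to 0.84. Ncl, nucleolin, had the highest CPM of all members before adjustment for length, at 913 and 968 CPM in WT and 1761 and 1429 CPM in KO (log2 0.76 ± 0.112, adjusted p = 0.000189). Npm1, the nucleolar chaperone nucleophosmin, went from 294 and 259 CPM to 531 and 405 CPM (log2 0.76 ± 0.129, adjusted p = 0.000896). In both genes LSK-KO-1 was well above LSK-KO-2, yet each KO library was above each WT library. Nolc1, a chaperone of snoRNPs, went from 194 and 209 CPM to 377 and 346 CPM (log2 0.84 ± 0.0948, adjusted p = 2.32e-05). Mybbp1a, a Pol I-associated repressor that also takes part in rRNA processing, went from 411 and 406 CPM to 692 and 703 CPM (log2 0.77 ± 0.0899, adjusted p = 2.90e-05). Ddx21, an RNA helicase, had the smallest change of the group (adjusted p = 0.000358).

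The 11 small-subunit genes spanned the widest range, from log2 0.40 (Wdr43) to 1.36 (Utp20), with the highest median of any role (0.81). Utp20, a large scaffold protein of the processome, stood at 40.2 and 42.6 CPM in WT and at 122 and 90.9 CPM in KO, 2.57-fold higher (log2 1.36 ± 0.144, adjusted p = 2.06e-05). The gene lies on the reverse strand of chromosome 10 at 88746607 to 88826804 (GRCm38) and has 62 separate exonic stretches. Rrp12, needed for export and late maturation, went from 40.5 and 55.2 CPM to 119 and 125 CPM (log2 1.35 ± 0.141, adjusted p = 1.85e-05), and its values by library are given because its change was close to that of Utp20. Heatr1, the mouse Utp10, which works in rRNA transcription and early processing, went from 135 and 148 CPM to 312 and 284 CPM (log2 1.08 ± 0.0990, adjusted p = 5.03e-06). Pno1, a late 40S assembly factor, went from 99.4 and 85.1 CPM to 204 and 174 CPM (log2 1.04 ± 0.116, adjusted p = 2.37e-05). Noc4l, the partner of Nop14, went from 76.9 and 78.6 CPM to 151 and 165 CPM (log2 1.02 ± 0.102, adjusted p = 9.37e-06). The fitted change was thus above log2 1 in each of these 5 genes, and in each the lower KO library was well above the higher WT library. Wdr43, the most abundant of the group, rose least, from 301 and 285 CPM to 388 and 384 CPM (log2 0.40 ± 0.0896, adjusted p = 0.00338), and its call was lost without LSK-WT-2. The processome members Wdr75, Bms1, Utp14a and Nop14 and the late factor Tsr1 lay between, at log2 0.81, 0.76, 0.54, 0.44 and 0.58. Utp14a and Nop14 were no longer called without LSK-WT-1, and Nop14 was no longer called with total counts. Of the exon bases of Tsr1, 32.3% are shared with the opposite-strand gene Srr, and of those of Utp14a 11.5% with another transcript, so without strand their reads cannot be fully told apart.

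The 12 large-subunit genes had a median log2 fold change of 0.63. Bop1, a WD-repeat protein that with Pes1 and Wdr12 forms the complex needed for cutting the rRNA spacer and for pre-60S maturation, went from 139 and 142 CPM to 263 and 275 CPM (log2 0.93 ± 0.0927, adjusted p = 8.72e-06). Nop2, an rRNA cytosine methyltransferase, went from 161 and 172 CPM to 261 and 274 CPM (log2 0.69 ± 0.0936, adjusted p = 9.65e-05). Gnl3, the nucleolar GTPase nucleostemin, went from 210.2 and 200.4 CPM to 285 and 237 CPM (log2 0.35 ± 0.105, adjusted p = 0.0182). LSK-KO-2 lay only a little above LSK-WT-1 in this gene, and its call was lost with upper-quartile scaling, with total counts and without either WT library. Noc2l, a partner of Noc3l in pre-60S transport, went from 336 and 343 CPM to 421 and 412 CPM (log2 0.29 ± 0.0888, adjusted p = 0.0177). It lost its call under the same 4 alternatives as Gnl3, and 20.9% of its exon bases are shared with the opposite-strand gene Samd11. Ftsj3, an rRNA methyltransferase, changed most in the group (log2 0.96). Bop1 came next, followed by the pre-60S factors Rrp1b (0.87) and Ebna1bp2 (0.78), then Nop2. Rrs1, which helps to seat the small 5S particle, and Nop16 changed by log2 0.68 and 0.58, and Noc3l and Pes1 by 0.51 and 0.49. Wdr12 (0.32) lay with Gnl3 and Noc2l at the low end. Noc3l was no longer called without LSK-WT-1, and Wdr12 without LSK-WT-2, with upper-quartile scaling or with total counts.

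Read ratios between some partners of the same complex differed between the WT and KO libraries. Ratios of reads between partners in a library carry no scaling, and 12 pairs were compared, chosen after the fold changes had been seen, as a description with no test. Pes1 stood at 127 and 124 CPM in WT and 177 and 174 CPM in KO, and Wdr12 at 158 and 139.8 CPM and 179 and 191 CPM. For every read of Wdr12 there were 0.882 and 1.02 reads of Bop1 in the WT libraries and 1.47 and 1.44 in the KO libraries, while the ratio of Pes1 to Wdr12 was 0.802 and 0.885 in WT and 0.985 and 0.911 in KO. Bop1 thus rose relative to Wdr12 by more than Pes1 did. The ratio of Noc4l to Nop14, which bind each other in the processome, was 1.57 and 1.52 in WT and 2.28 and 2.35 in KO. The ratio of Nhp2 to Dkc1 was 0.529 and 0.471 in WT and 0.634 and 0.645 in KO, and that of Gar1 to Dkc1 was 0.265 and 0.277 and 0.340 and 0.366. In these pairs both KO libraries were above both WT libraries. The ratio of the catalytic subunits Polr1a and Polr1b overlapped between the groups, at 0.566 and 0.483 in WT and 0.613 and 0.430 in KO.

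**Figure D3:**
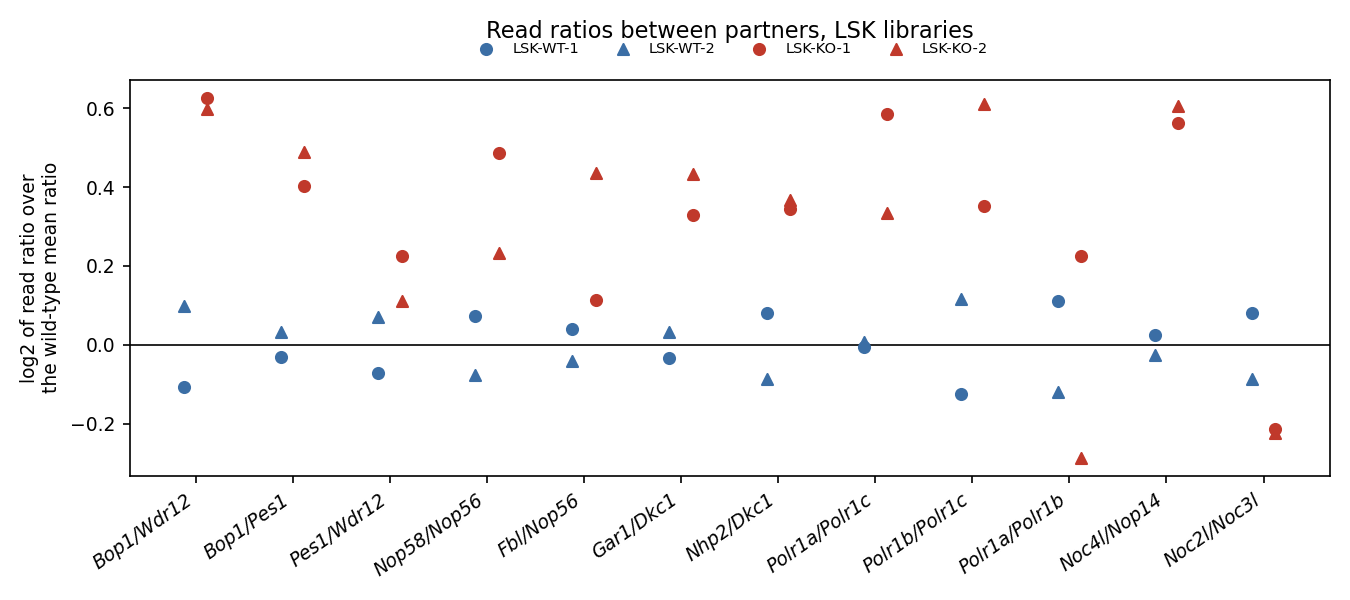
Ratio of the reads of 2 partner genes in each LSK library, as log2 of the ratio over the mean WT ratio (line at 0); circles are replicate 1, triangles replicate 2, blue WT and red KO. The KO marks lie above the WT marks in 10 of the 12 pairs and on both sides in Polr1a over Polr1b. They lie below in Noc2l over Noc3l (8.36 and 7.45 in WT, 6.81 and 6.76 in KO). Which gene of a pair is the numerator is arbitrary, and some genes are in several pairs. No share over other gene pairs was computed. Of 13008 single genes tested, both KO libraries lay above both WT libraries in 4497 and below them in 4983.

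Per kilobase of the principal transcript, WT LSK levels of the members spanned from 4.70 CPM per kb (Utp20) to 169 (Npm1). Nhp2 (147), Nop56 (134), Noc2l (122), Nop58 (122) and Ncl (115) followed Npm1, all as mean CPM per kb in WT. Neighbours in this order differed by little: the WT libraries of Nop56 (135 and 133 CPM per kb) and of Nop58 (129 and 115) did not overlap, while those of Noc2l (121 and 123) lay within the range of Nop58. At the bottom Polr1a (6.05) and Utp20, both very long proteins, had the fewest reads per kb. In KO the order began with Npm1 and Nhp2 again, and Ncl moved to the third place (194 CPM per kb, mean) while Nop56 moved to the fifth (164). The principal transcripts taken for Ncl and Wdr12 are long (8202 and 10012 bases), which lowers their levels on this scale.

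The other genes of the pathway moved with the members less uniformly. Of 140 further genes, listed by role with earlier results of these data known, 137 were in the LSK table and tested. Of these 84 were called higher and 3 lower, beside 21.0% and 21.2% of all genes tested, and the median log2 fold change was 0.40. The number called higher was 66 with upper-quartile scaling (17.0% of all genes) and 56 with total counts (14.3%). Among the 84, small-subunit factors accounted for 31 of 44 tested and large-subunit factors for 35 of 52, with 1 lower. The RNA exosome accounted for 10 of 13, and snoRNP assembly factors for 6 of 12. Of the 16 other genes of Pol I transcription only Polr2f and Polr2h, subunits shared between polymerases, were called higher, and 2 were called lower. Ruvbl2, an ATPase of snoRNP assembly and of chromatin remodelling, rose most, from 184 and 176 CPM to 382 and 419.5 CPM (log2 1.16 ± 0.0943, adjusted p = 2.05e-06). Dis3, a catalytic subunit of the exosome, went from 54.8 and 48.6 CPM to 113 and 106 CPM (log2 1.08 ± 0.116, adjusted p = 1.57e-05). The genes called lower were Taf1d, a subunit of the promoter complex SL1, Ttf1, which terminates Pol I transcripts, and Nop53, a pre-60S factor. Taf1d went from 28.2 and 33.4 CPM to 24.6 and 16.9 CPM (log2 -0.57, adjusted p = 0.0344), Ttf1 from 32.4 and 34.2 CPM to 23.0 and 23.3 CPM (-0.53, 0.0134) and Nop53 from 259 and 242 CPM to 172 and 206 CPM (-0.41, 0.00814). All 3 of these calls were lost without LSK-WT-1, and each was lost without at least 1 further library: LSK-WT-2 for Taf1d and Ttf1, LSK-KO-2 for Taf1d and LSK-KO-1 for Nop53. Ubtf, the upstream binding factor of Pol I, stood at 251 and 249.7 CPM in WT and 264 and 243 CPM in KO, and the groups overlapped (log2 0.02, adjusted p = 0.904).

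In neutrophils none of the 39 genes passed the adjusted threshold, nor did any of the 12836 genes tested (0%). Their fold changes were negative for 34 genes and positive for 5, with a median of -0.89 beside 0.02 over all genes tested. At an unadjusted p below 0.05, 6 of 39 members (15.4%) were lower in KO and 0 higher, beside 9.13% of all genes tested lower. All KO libraries lay below all WT libraries in 14 of 39 members (35.9%), beside 17.5% of all genes tested, and above them in 1, Utp14a. DESeq2 called 891 genes, 613 of them lower in KO (4.78%), and 3 of these were members (Nop56, Rrp9 and Nop16). Levels were more scattered than in LSK cells, and the 39 genes took a smaller share of reads, 0.0212% to 0.175% of a neutrophil library. That share also depends on the most abundant genes. The top 10 took 17.8% to 48.6% of the reads of a neutrophil library and 2.77% to 3.69% of an LSK library. The median SD of a member within a group was 0.67 on the log2 scale, against 0.09 in LSK cells. In N-KO-3 the counts were lowest, with 4 members under 20 reads and Tsr1 at 4 reads.

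**Figure D4:**
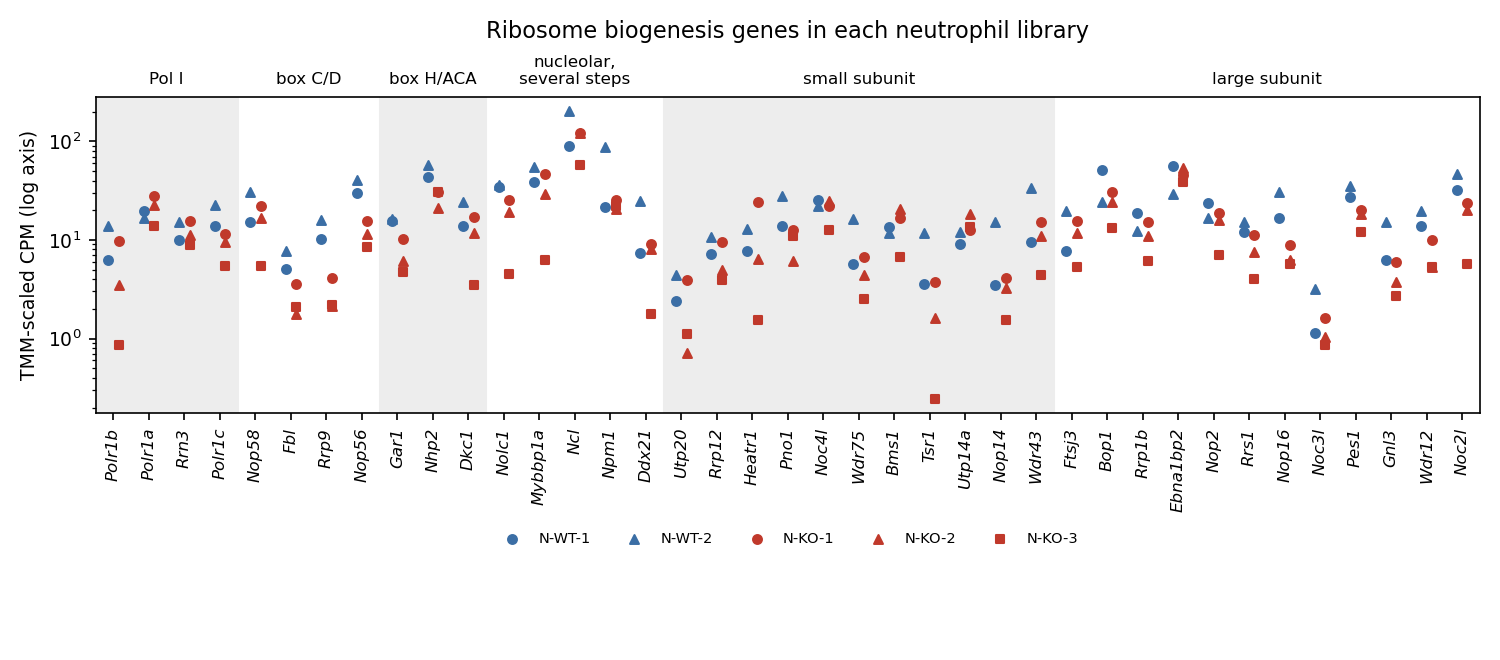
Levels of the 39 genes in each of the 5 neutrophil libraries, in CPM on a log axis, in the order of the LSK plot; blue marks WT and red KO, and circles, triangles and squares are replicates 1, 2 and 3. WT and KO marks overlap in 24 of the 39 genes, N-WT-2 (blue triangles) is often highest and N-KO-3 (red squares) often lowest.

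The libraries N-WT-2 and N-KO-3 carried unlike amounts of marker transcripts. The sums given here are of scaled CPM and are not shares of reads. In N-KO-3, S100a8 held 4811760 of 26373612 reads and stood at 294327 CPM after scaling. N-WT-2 had a neutrophil marker sum of 38850.3 CPM against 224076 CPM in N-WT-1, and a B cell marker sum of 1974 CPM against 77.1 CPM in N-WT-1 and at most 10.6 CPM in KO. N-KO-3 had a neutrophil marker sum of 674654 CPM against 231135 and 246595 CPM in the other KO libraries. Its red cell marker sum was 18398 CPM against 37.7 and 2.33 CPM in them, while N-WT-1 and N-WT-2 had 1753 and 3685 CPM, so that both WT libraries also lay above these KO libraries. The 10 most abundant genes of N-KO-3 took 48.6% of its reads. T and NK cell markers summed to 899.7 CPM in N-WT-2, to 184 CPM in N-WT-1 and to 98.2, 39.2 and 133 CPM in KO. The part of these markers in the members' values was not tested. The members summed to 742 and 1112 CPM in WT and to 732, 596 and 343 CPM in KO, so these libraries were also the extremes of the list. Without scaling, the members took 0.0805% and 0.175% of reads in WT and 0.0743%, 0.0550% and 0.0212% in KO, with the same extremes. Without N-WT-2 alone the members' median log2 fold change was -0.45, and without both of these libraries it was -0.14, with 16 members positive and 23 negative and 0 called.

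**Figure D5:**
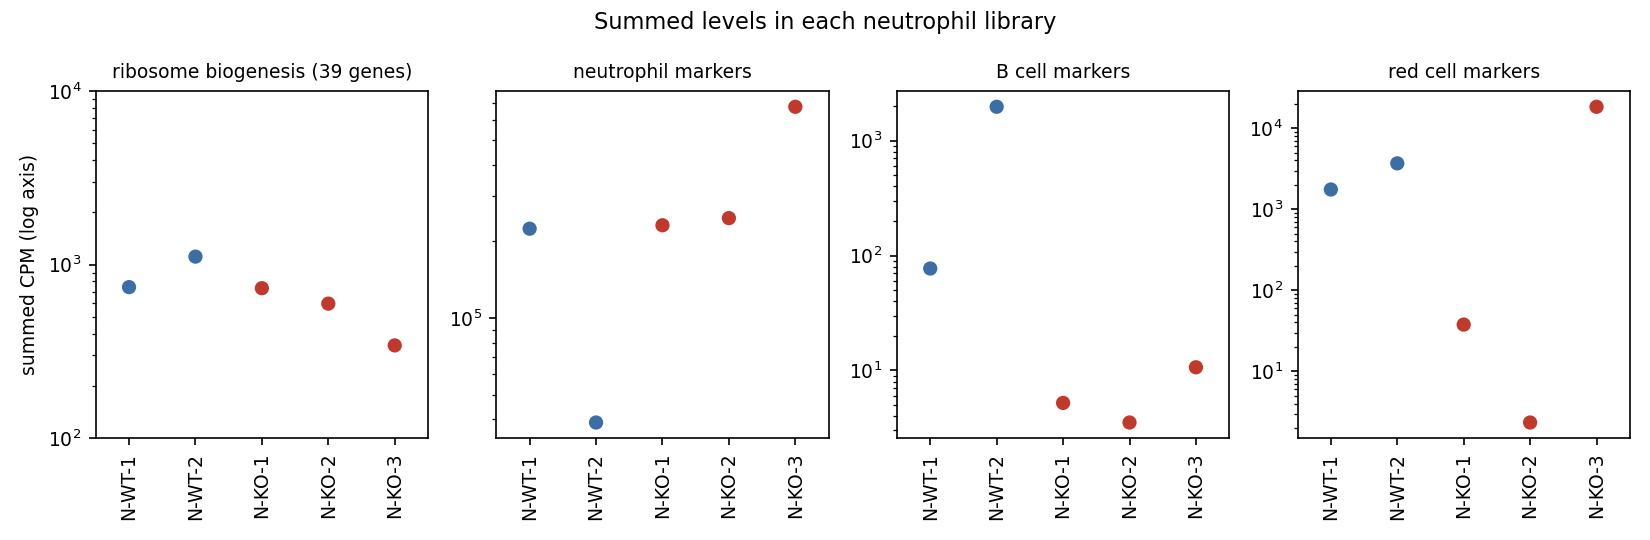
Summed CPM in each neutrophil library, on log axes that differ between panels, for the 39 ribosome biogenesis genes and for neutrophil, B cell and red cell markers; blue is WT and red is KO. N-WT-2 is highest for the 39 genes (1112 CPM) and for B cell markers and lowest for neutrophil markers, and N-KO-3 is lowest for the 39 genes (343 CPM) and highest for neutrophil and red cell markers.

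Rrp9 had the lowest fold change of the members in neutrophils. It stood at 10.3 and 15.9 CPM in WT and at 4.12, 2.13 and 2.20 CPM in KO (log2 -2.21 ± 0.530, unadjusted p = 0.00413, adjusted p = 0.216). Nop16, a pre-60S factor, stood at 16.7 and 30.5 CPM in WT and 8.85, 6.28 and 5.75 CPM in KO (log2 -1.76 ± 0.446, adjusted p = 0.216). Nop56 stood at 30.1 and 40.6 CPM in WT and 15.4, 11.4 and 8.44 CPM in KO (log2 -1.59 ± 0.405, adjusted p = 0.216). In these genes the groups did not overlap, and without any single library the log2 fold change stayed between -2.62 and -1.89 for Rrp9, -2.07 and -1.29 for Nop16 and -1.85 and -1.38 for Nop56. Wdr12, Gar1 and Nhp2 were the other members with an unadjusted p below 0.05 (log2 -1.29, -1.19 and -0.87). Npm1 stood at 21.3 and 86.7 CPM in WT and 25.2, 20.7 and 22.0 CPM in KO (log2 -1.26, adjusted p = 0.389), and N-WT-2 alone was high. Without N-WT-2 its log2 fold change was 0.05, and without N-WT-1 it was the 1 member called, at -1.88, beside 2.68% of all genes tested called lower. Ncl stood at 89.4 and 203 CPM in WT and 121, 121 and 56.9 CPM in KO (log2 -0.55, adjusted p = 0.673), with overlapping groups. The positive values were those of Utp14a (0.48), Polr1a (0.23), Bms1 (0.22), Ebna1bp2 (0.10) and Heatr1 (0.04), and all 5 turned negative with total counts. That scaling moved the median of all genes to -0.64 and that of the members to -1.57, and the members' median less that of all genes was -0.93 there and -0.91 with trimmed means. Of the 137 further genes of the pathway 0 were called in neutrophils (1 higher and 21 lower at an unadjusted p below 0.05), while DESeq2 called 9 lower (6.57%), beside 4.78% of all genes tested lower.

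An interaction term over 13791 genes tested whether the knockout effect differed between LSK cells and neutrophils. No member passed the adjusted threshold in edgeR, while 4 genes in all did (0.0290%). The difference (LSK effect less neutrophil effect) was positive for all 39 members, with a median of 1.58 on the log2 scale beside 0.21 over all genes. At an unadjusted p below 0.05 there were 19 members (48.7%), beside 10.5% of all genes with the LSK effect above the neutrophil effect. The largest value was that of Rrp9 (2.79 ± 0.545, adjusted p = 0.159), and Nop16 (2.37 ± 0.470, adjusted p = 0.159) and Nhp2 (1.70 ± 0.377, adjusted p = 0.176) came next by p-value. With DESeq2, 8 members were called with the LSK effect above, beside 4.18% of all genes tested. The count was 8 without N-WT-1 (5.14% of all genes) and 12 without both N-WT-2 and N-KO-3 (7.38% of all genes), where the median was 0.90.

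The levels of the WT groups were also compared between LSK cells and neutrophils. The populations were counted in separate tables, so population and table cannot be told apart here. All 39 log2 differences were positive in the joint fit, with a median of 1.30 beside 0.01 over all genes, and 9 of 39 (23.1%) were called higher in LSK cells, beside 11.5% of all genes tested. None was called lower. Gnl3 had joint levels of 126 and 121 CPM in WT LSK and 10.1 and 23.3 CPM in WT neutrophil libraries, 7.37-fold apart (adjusted p = 0.00789). Noc3l stood at 24.0 and 27.7 CPM and 1.84 and 4.95 CPM (7.59-fold, adjusted p = 0.00968). Dkc1 (6.21-fold), Wdr43 (5.21-fold), Wdr12 (3.39-fold), Rrn3 (3.30-fold), Nop2 (3.11-fold), Rrs1 (2.73-fold) and Nop56 (2.71-fold) were the others called. The 5 members with the largest fold change in KO LSK cells were also higher in WT LSK cells, without a call in this fit. They were Heatr1 5.21-fold, Utp20 4.60-fold, Rrp12 2.05-fold, Pno1 1.69-fold and Noc4l 1.24-fold. Heatr1 and Utp20 were called with DESeq2 (16.6% of all genes called higher) and without N-KO-1 (11.05%). Whether these 5 differ from the other members here was not tested. The number called higher in LSK cells under other settings is given with the share of all genes called higher there. When single libraries were left out it was 0 without LSK-WT-1 (0.941% of all genes) or LSK-WT-2 (1.01%) and 4 without LSK-KO-1 (3.99%), LSK-KO-2 (4.00%) or N-WT-1 (10.4%). It was 7 without N-KO-2 (11.4%), 12 without N-KO-1 (11.05%), 14 without N-WT-2 (16.8%) and 22 without N-KO-3 (15.7%). Without both N-WT-2 and N-KO-3 it was 29, beside 27.7% of all genes, and in a fit of the WT libraries alone no gene was called, members included.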

How the data were processed

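RNA-seq libraries of sorted LSK cells (4) and Ly6G-positive cells (5) were made with a SMART-Seq v4 kit, per the labels' protocols, and the use of strand in counting was not given in the sources used here. Per the submitters' processing notes, the tools were bcl2fastq, STAR, featureCounts and DESeq2 (no versions) and the builds mm10 and GRCm38. For each population the authors deposited raw read counts per gene, which entered all tests. They also deposited normalized values (unit: signal), each library's counts divided by 1 factor, used only to match the 39 symbols. Libraries were grouped by title. Replicates differed by more than counting noise (lowest chi-square per gene 9.87).

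Counts were tested within a population with edgeR 4.0.16 in R 4.3.3 (TMM, filterByExpr, robust quasi-likelihood F test, Benjamini-Hochberg adjustment over all genes tested, threshold 0.05). One fit of 9 libraries, over 35212 genes joined by symbol (781 through an older name), gave the interaction and the WT comparison. Members of a role, other genes of the pathway and markers were lists. Members and lists were chosen with earlier results of these data known. Values by library are given for up to 4 members of a role with the highest mean log2 CPM in LSK cells and for the largest and smallest change; of the wider pathway, for the 2 largest rises and genes called lower. Rrp12, Pes1, Wdr12, Ubtf and the neutrophil members named were added after their values were seen. Lengths, coordinates and exon overlaps came from a GRCm38 annotation (APPRIS principal transcripts), and promoters from RefSeq. Ncl and Gnl3 each share 1.31% of their exon bases with a small nucleolar RNA gene on the same strand. Nop56 and Nop58 share 2.44% and 0.781% of theirs with the same-strand genes Gm24451 and Gm26293, so some reads may belong to those other genes. Alternatives were other scaling (RLE, upper quartile, total counts), no filter, DESeq2 1.42.0, a replicate block, all libraries in one fit, each library left out and, chosen after seeing the data, N-WT-2 and N-KO-3 left out. The edgeR procedure was also run on simulated counts drawn independently for each gene and library. Such counts lack the marker differences between the neutrophil libraries, so that run does not check the neutrophil results. Nopchap1, Riok2 and Exosc6 were not analysed here, and no promoter window was used for Bop1, Fbl, Npm1, Rrp12 and Rrs1.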

Additional observations from a re-analysis of the deposited data

How the results depend on the processing

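In LSK cells all 39 log2 fold changes kept their sign in 11 alternatives. With single libraries left out, which leaves 1 library in a group, the members' median was 0.65 to 0.75. One fit of all 9 libraries, whose spread includes the neutrophil libraries, called 0 members and 0 further pathway genes. The members' median of 0.69 was 0.59 with upper-quartile scaling and 0.53 with total counts, each 0.72 above that of all genes. In neutrophils the count of 0 was 3 with DESeq2, 3 in the one fit and 0 to 1 with single libraries left out, and the median was -1.57 with total counts, -1.31 to -0.45 with single libraries left out and -0.14 without N-WT-2 and N-KO-3. Further pathway genes went from 0 to 9 (DESeq2) and 10 (one fit), where calls over all genes went from 0 to 891 and 562. The interaction count of 0 was 8 with DESeq2, 0 to 8 with single libraries left out and 12 without N-WT-2 and N-KO-3, where calls over all genes rose from 4 to 1042, up to 1404, and 1825. The 9 members called between WT groups became 26 with total counts, 18 with DESeq2, 3 with the replicate block, 0 in the WT libraries alone, 29 without N-WT-2 and N-KO-3 and 0 to 22 with single libraries left out. Calls over all genes, 3494 at first, became 4730 (with the median of all genes at 1.01), 4971, 1682, 0, 7750 and 354 to 5060. The causes were not tested. The motif share was 5.88% in the 250 bases before the start.

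Over the neutrophil alternatives 17 of the 39 members changed sign. With total counts Polr1a was -0.32, Heatr1 -0.47, Utp14a -0.20, Bms1 -0.32, Ebna1bp2 -0.44 and Spop -0.58. With upper-quartile scaling Heatr1 was -0.11, Ebna1bp2 -0.0437 and Spop -0.00311. Without N-WT-2 and N-KO-3 Ncl was 0.42, Npm1 0.0907, Heatr1 0.97 and Ebna1bp2 -0.21. With single libraries left out the range was -0.96 to 0.12 for Ncl, -1.88 to 0.05 for Npm1, -0.0261 to 0.46 for Polr1a, -1.40 to 0.55 for Heatr1, -0.11 to 0.56 for Bms1, -0.33 to 0.70 for Ebna1bp2 and -0.0371 to 0.40 for Spop.

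For deviations from group means, same-numbered libraries had r = 0.24 and -0.02 in neutrophils and 0.0039 in LSK cells. Unlike-numbered neutrophil libraries ran from -0.24 (N-WT-2 with N-KO-1) to 0.17 (N-WT-2 with N-KO-3). Deviations in a group of 2 libraries mirror each other, so these values are not independent and cannot show pairing. No label ties the numbers to a shared source, so same-numbered libraries were not taken as pairs. With the replicate block 39 members were called in LSK cells (median 0.69), beside 22.1% of all genes called higher. The count was 0 in neutrophils (median -0.65) and in the interaction, while calls over all genes in neutrophils went from 0 to 334. Among 26373612 counted reads N-KO-3 held 4 reads of Tsr1, so such values carry a large counting error.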
